A study of Mus musculus with 6 samples.

Results

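The RNA of 10 alpha and beta tubulin genes was followed in melanoma tumors from mice treated with Rigosertib (RGS) or with vehicle. The members were 4 alpha tubulin genes (*Tuba1a*, *Tuba1b*, *Tuba1c* and *Tuba4a*) and 6 beta tubulin genes (*Tubb2a*, *Tubb2b*, *Tubb3*, *Tubb4b*, *Tubb5* and *Tubb6*). They were picked by name from the 40166 genes of the count table. The rule that lists them uses no measured value, but the members were chosen with earlier results of these data known. Of the alpha and beta genes left out, *Tuba3a*, *Tuba3b*, *Tubal3* and *Tubb1* had 0 counts in every tumor. *Tuba8* had at most 66 counts and *Tubb4a* at most 33. All 10 members passed the filter on low counts, which left 15355 genes. The tumors grew under the skin of C57BL/6 mice from YUMM3.3, a single mouse melanoma line with mutant *Braf*. One group of 3 tumors received RGS at 300 mg/kg by mouth and the other group of 3 received water, and both were collected after 17 days of treatment. Tumors are called here by the numbers in their labels, 7 to 9 for vehicle and 10 to 12 for RGS. Age and sex of the mice are not in the labels, and nothing there says that each tumor came from a different mouse, so the p-values measure the spread between these tumors only.

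Microtubules are hollow polymers of alpha and beta tubulin dimers, and they form the mitotic spindle, the tracks of vesicle transport and the core of cilia. Mammals carry several genes (isotypes) for each family, which differ in tissue and mostly in the last residues of the protein. Tubulin RNA is known to respond to the pool of free dimers: when unpolymerized tubulin rises, the factor TTC5 binds the first residues of new alpha and beta tubulin chains as they leave the ribosome, and the RNA being translated is then degraded through SCAPER and the CCR4-NOT deadenylase. RGS was developed as an inhibitor of RAS and polo-like kinase signaling, and other work has described it as an agent that destabilizes microtubules. The authors mention a dispute over whether that activity belongs to RGS itself or to a contaminant of its preparations. The comparison therefore asks how much RNA for each subunit of the dimer, and for which isotypes, was present in the tumors of each group.

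The coding starts are shown because TTC5 reads them. Each line gives the first 30 coding bases of the principal transcript in GENCODE M21 (GRCm38), 5′ to 3′, with the first 4 codons in capitals. In the alpha genes these codons read Met-Arg-Glu-Cys and in the beta genes Met-Arg-Glu-Ile. The last line is gamma tubulin, *Tubg1*, which lacks this start.
Tuba1a: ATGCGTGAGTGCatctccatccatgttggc
Tuba1b: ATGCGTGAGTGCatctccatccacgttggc
Tuba1c: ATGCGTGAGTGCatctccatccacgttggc
Tuba4a: ATGCGCGAGTGCatttcagtccatgtgggg
Tubb2a: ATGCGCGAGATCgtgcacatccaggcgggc
Tubb2b: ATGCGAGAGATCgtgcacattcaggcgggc
Tubb3: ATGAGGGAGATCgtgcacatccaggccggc
Tubb4b: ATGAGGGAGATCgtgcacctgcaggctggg
Tubb5: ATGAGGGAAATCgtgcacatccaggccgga
Tubg1: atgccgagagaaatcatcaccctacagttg

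*Tubb6* also has the beta start, but its sequence is not printed here. Of 21600 protein-coding genes, 17 (0.0787%) began with 1 of these starts, 9 with the alpha and 8 with the beta form. They were 16 tubulin genes and *Gm49450*, a gene model that spans *Tuba1a* and *Tuba1b* and had 0 to 2 counts per tumor. Delta, epsilon and gamma tubulin (*Tubd1*, *Tube1*, *Tubg1* and *Tubg2*) had neither.

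The coding tails are shown because isotypes differ most there, and because enzymes that add glutamate chains or remove the final tyrosine act on this stretch. Each line gives the last 18 codons before the stop in 1 of 7 members, with glutamate codons in capitals.
Tuba1c: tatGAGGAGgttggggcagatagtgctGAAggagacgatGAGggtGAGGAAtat
Tuba4a: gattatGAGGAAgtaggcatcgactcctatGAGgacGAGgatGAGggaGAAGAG
Tubb2a: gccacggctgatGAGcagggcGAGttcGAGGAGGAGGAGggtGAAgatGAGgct
Tubb2b: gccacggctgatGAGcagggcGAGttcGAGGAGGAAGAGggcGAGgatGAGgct
Tubb3: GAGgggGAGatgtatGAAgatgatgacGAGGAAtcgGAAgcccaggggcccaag
Tubb4b: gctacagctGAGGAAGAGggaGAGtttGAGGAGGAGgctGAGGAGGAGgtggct
Tubb5: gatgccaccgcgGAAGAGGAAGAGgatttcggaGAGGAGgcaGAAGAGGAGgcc

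The tails shown held between 6 and 10 glutamate codons. Those of *Tubb2a* and *Tubb2b* differed only by synonymous codons, so they encode the same residues. *Tuba1c* ended in a tyrosine codon (tat) and *Tuba4a* did not. Over the whole coding sequence *Tuba1b* and *Tuba1c* shared 98.4% of bases, *Tuba1a* and *Tuba1b* 98.3%, and *Tubb2a* and *Tubb2b* 96.5%. The other beta pairs shared 80.8% to 86.4%, and alpha shared 54.5% to 57.4% with beta.

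These copies bear on the counts. Of all windows of 150 bases (the read length) in the principal transcript, 54.7% of *Tuba1a*, 57.9% of *Tuba1b*, 46.7% of *Tuba1c*, 27.9% of *Tubb2a*, 20.1% of *Tubb2b* and 16.8% of *Tubb4b* also occurred in a transcript of another gene. How the authors' counting treated such reads is not given in the sources used here. The split among these genes is therefore uncertain, and so are the sums over each family. *Tubb3*, *Tubb5* and *Tubb6* shared no window. *Tuba4a* shared 45.7% with *Stk16*, a kinase gene on the opposite strand that overlaps it, and the strand setting of the counting is not given either.

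The libraries held 22793087 to 32555494 counts in vehicle tumors and 13837932 to 21617368 in RGS tumors. Every RGS library was thus smaller than every vehicle library. The members took 0.245% to 0.281% of the counts in vehicle tumors and 0.381% to 0.404% in RGS tumors. Counts of mitochondrial genome genes made up 2.13% to 3.20% in vehicle and 5.60% to 8.22% in RGS tumors. Of the pigment genes that define melanocytes, *Mlana*, *Dct* and *Tyr* were listed at 0 counts in every tumor, and the 8 markers listed summed to 4.53 to 12.7 CPM, the count scaled to library size. The pan-leukocyte gene *Ptprc* was also at 0, although *Laptm5* and *Cd53*, the other leukocyte markers listed, were both higher with RGS. *Kif11*, a mitotic motor that dividing cells need, was at 0 in all 6 tumors too, so a 0 in this table need not mean that the RNA was absent. In bulk tumor RNA, fewer cells of a type and less RNA per cell cannot be told apart.

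With RGS 8 of the 10 tubulin genes rose and 0 fell (edgeR, adjusted p under 0.05), where 16.3% of all tested genes rose and 16.5% fell. All 6 beta genes rose, against 2 of the 4 alpha genes. The median log2 fold change was 1.39 over the beta genes and 0.43 over the alpha genes, beside -0.05 over all tested genes. In 9 of the 10 genes every RGS tumor lay above every vehicle tumor, where 21.7% of all tested genes did so and 24% had every RGS tumor below every vehicle tumor. The plot of levels by tumor shows each gene as CPM per kilobase of gene length. The values that follow by family are CPM of the scaled library, not divided by length.

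**Figure D1:**
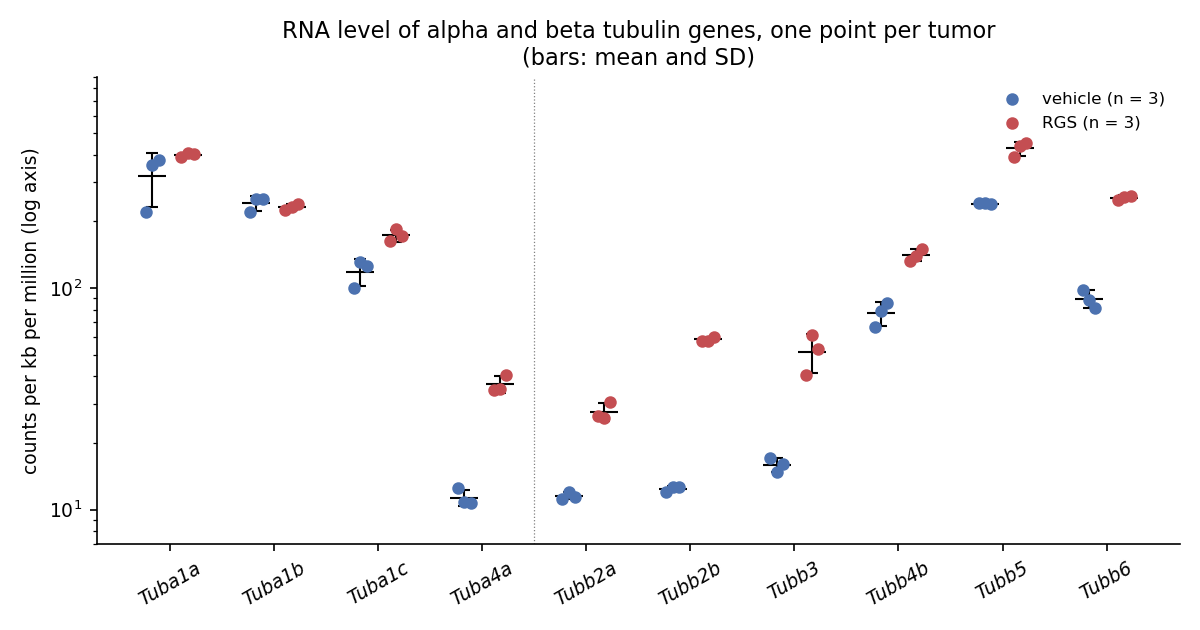
Level of each of the 10 tubulin genes in each of the 6 tumors, as CPM per kilobase of gene length on a log axis. Each point is 1 tumor, and bars give each group's mean and SD (n = 3). All RGS tumors lie above all vehicle tumors in every gene except *Tuba1b*, and vehicle tumor 7 lies below the other tumors in *Tuba1a*.

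*Tubb5*, the most abundant beta isotype of dividing cells, measured 803, 808 and 795 CPM in the vehicle tumors and 1303, 1459.8 and 1503 CPM in the RGS tumors. The vehicle tumors lay close together, with a coefficient of variation of 0.785%, and the groups did not overlap. The log2 fold change was 0.83 (SE 0.14, adjusted p = 0.000215).

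*Tubb4b*, a broadly expressed isotype that is also prominent in cilia, measured 139, 165 and 179 CPM with vehicle and 278, 292 and 314 CPM with RGS. The lowest RGS tumor was above the highest vehicle tumor. The log2 fold change was 0.87 (SE 0.15, adjusted p = 0.000247). Its processed copy *Tubb4b-ps1* had at most 3 counts in any tumor.

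*Tubb6*, an isotype known to loosen the microtubule network when it is overproduced, measured 172, 156 and 143 CPM with vehicle and 437, 452 and 460.4 CPM with RGS. Again the groups were well apart and the RGS tumors near each other. The log2 fold change was 1.52 (SE 0.15, adjusted p = 4.09e-07).

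*Tubb2b*, an isotype best known from developing neurons, measured 27.5, 29.0 and 29.0 CPM with vehicle and 132, 133 and 138 CPM with RGS. This was the largest rise among the members, with a log2 fold change of 2.24 (SE 0.16, adjusted p = 8.55e-09) and a ratio of group means of 4.72. By size of the log2 fold change it ranked 809 from the top among all 15355 genes, so other genes rose more. That rank takes no account of the SE. *Tubb2a*, its neighbor on chromosome 13, measured 18.0, 19.3 and 18.4 CPM with vehicle and 42.8, 41.7 and 49.3 CPM with RGS. Its groups did not overlap either, and the log2 fold change was 1.26 (SE 0.20, adjusted p = 6.88e-05). Counted together because of their shared windows, *Tubb2a* and *Tubb2b* rose by a log2 fold change of 1.93 (adjusted p = 3.01e-08).

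*Tubb3*, the isotype used as a marker of neurons and also made by many tumors, measured 31.9, 27.6 and 29.9 CPM with vehicle and 75.7, 115 and 99.3 CPM with RGS. The RGS tumors spread more than in any other member (coefficient of variation 20.3%), yet all were above vehicle. The log2 fold change was 1.69 (SE 0.19, adjusted p = 1.62e-06). Some neuronal genes moved with *Tubb3* and *Tubb2b*. The 9 neuron markers listed summed to 51.2 to 57.5 CPM in vehicle tumors and 569.8 to 733 CPM in RGS tumors, and 4 of the 7 tested were called higher, where 16.3% of all tested genes were. Nearly all of that sum was *Nefl* and *Nefm*, which encode neurofilaments and had log2 fold changes of 4.17 and 3.17. *Snap25* was also called higher (log2 fold change 2.18, adjusted p = 0.000877), with means of 2.11 CPM with vehicle and 9.47 CPM with RGS. So was *Elavl3* (6.47, adjusted p = 0.0336), which had at most 17 counts in any tumor. The remaining tested markers differed: *Stmn2* had 0.42 (adjusted p = 0.491), *Elavl4* -1.44 (adjusted p = 0.511) and *Syp* -2.19 (adjusted p = 0.350), and none of these passed. *Nefh* was at 0 and *Rbfox3*, a marker of mature neurons, had at most 4 counts. The part of neurons or nerve in the rise of *Tubb3* and *Tubb2b* was not tested.

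Among the alpha genes, *Tuba4a* moved most. It is encoded without a final tyrosine, and it is known for high levels in platelets, muscle and brain. It measured 46.1, 40.1 and 39.6 CPM with vehicle and 128, 129 and 149.9 CPM with RGS. The groups were far apart, and the log2 fold change was 1.70 (SE 0.16, adjusted p = 3.25e-07). The overlapping *Stk16* had a log2 fold change of 0.15 (adjusted p = 0.625). Of the 4 platelet markers listed, *Pf4* and *Gp9* were at 0 in every tumor and *Ppbp* had at most 4 counts, while *Itga2b* had 90 to 308 counts with overlapping groups (log2 fold change -0.13, adjusted p = 0.832). Their sum ran from 7.85 to 10.98 CPM with vehicle and from 4.40 to 12.1 CPM with RGS, and their part in the rise of *Tuba4a* was not tested.

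*Tuba1c*, an alpha isotype of dividing cells, measured 229, 299 and 287 CPM with vehicle and 373, 422 and 392 CPM with RGS. The groups did not overlap. The log2 fold change was 0.54 (SE 0.15, adjusted p = 0.0110). The call was lost without RGS tumor 11 (adjusted p = 0.0708) and when libraries were scaled by total count alone (adjusted p = 0.0531).

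*Tuba1a*, the main alpha isotype of developing neurons, measured 398, 649.6 and 685 CPM with vehicle and 704, 734 and 728 CPM with RGS. Vehicle tumor 7 stood apart, and the highest vehicle tumor came close to the lowest RGS tumor. The gene did not pass the test, with a log2 fold change of 0.32 (SE 0.18, adjusted p = 0.180). It was 0.11 (adjusted p = 0.485) without vehicle tumor 7, and 0.47 (adjusted p = 0.0469) without vehicle tumor 9.

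*Tuba1b*, the ubiquitous alpha isotype, measured 415, 473 and 472 CPM with vehicle and 421, 436 and 449 CPM with RGS. The groups overlapped, and this was the only member with a fold change below 0. The log2 fold change was -0.06 (SE 0.14, adjusted p = 0.793). Counted together, *Tuba1a*, *Tuba1b* and *Tuba1c* had a log2 fold change of 0.25 (adjusted p = 0.228) and did not pass the test.

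**Figure D2:**
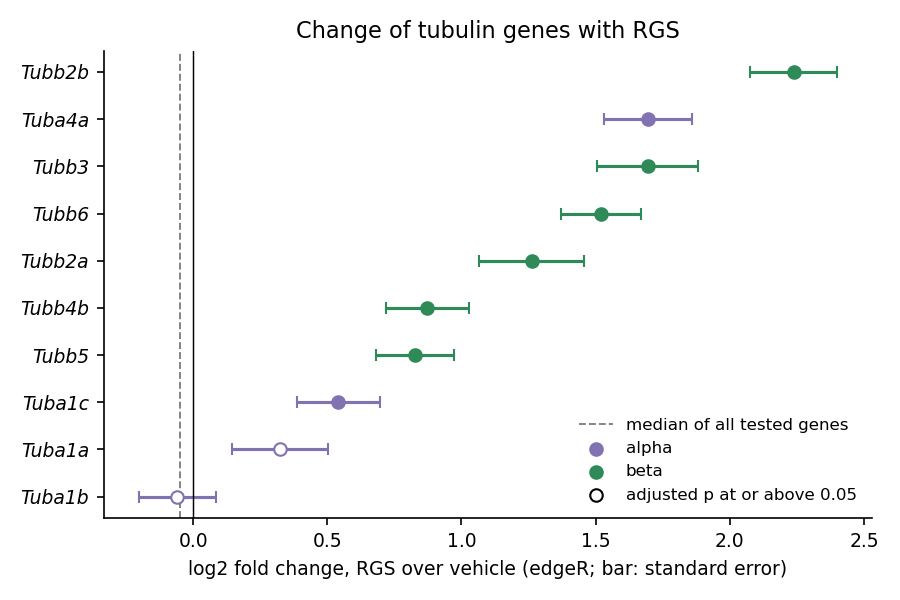
Log2 fold change of each tubulin gene, RGS against vehicle, from edgeR, with bars of 1 SE (n = 3 tumors per group). The 6 beta genes and *Tuba4a* lie between 0.83 and 2.24, *Tuba1c* at 0.54, and *Tuba1a* and *Tuba1b* did not pass the test.

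Levels of different genes were compared per length, as CPM per kilobase. Summed over the 6 beta genes the level was 446, 450.1 and 446 in the vehicle tumors and 899, 981 and 1008 in the RGS tumors, or 447 ± 2.27 against 963 ± 57.2 (SD, n = 3). The beta sum thus lay 2.15 times higher with RGS, and the vehicle tumors differed little among themselves. Summed over the 4 alpha genes the level was 555, 754 and 767 with vehicle and 813, 859 and 856 with RGS, or 692 ± 119 against 843 ± 25.6 (SD, n = 3), a ratio of 1.22. The log2 ratio of the alpha sums was 0.28, and 0.15 without vehicle tumor 7.

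The balance between both subunits of the dimer differed between the groups. For each unit of alpha RNA the vehicle tumors held 0.804, 0.597 and 0.582 units of beta RNA and the RGS tumors 1.11, 1.14 and 1.18. By this scaling beta was below alpha in every vehicle tumor and above it in every RGS tumor. Where the ratio lay relative to 1 also rests on how reads shared between genes were counted, which is not given. Of windows of 150 bases, 54.7% of *Tuba1a*, 57.9% of *Tuba1b* and 46.7% of *Tuba1c* were shared, and none of *Tubb5* or *Tubb6*. Without the length scaling, as sums of CPM, the ratio was 1.09, 0.824 and 0.806 with vehicle and 1.40, 1.45 and 1.49 with RGS, so vehicle tumor 7 then held more beta than alpha while the groups still did not overlap. Over all 10 genes the sum was 1139.6 ± 120.4 with vehicle and 1805 ± 81.9 with RGS (SD, n = 3), a ratio of 1.58.

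In vehicle tumors the order of mean levels per length was *Tuba1a* (320.2), *Tuba1b* (242), *Tubb5* (241), *Tuba1c* (119), *Tubb6* (89.4), *Tubb4b* (77.1), *Tubb3* (16.0), *Tubb2b* (12.4), *Tubb2a* (11.5) and *Tuba4a* (11.3). The ranges over tumors overlapped between neighbors among the first 3, between *Tubb6* and *Tubb4b*, and among the last 3. In RGS tumors the order was *Tubb5* (427), *Tuba1a* (401), *Tubb6* (256), *Tuba1b* (232), *Tuba1c* (173), *Tubb4b* (141), *Tubb2b* (58.6), *Tubb3* (51.7), *Tuba4a* (36.7) and *Tubb2a* (27.7). Here *Tubb5* and *Tuba1a* overlapped, as did *Tubb2b* with *Tubb3* and *Tubb3* with *Tuba4a*. The place of *Tubb6* among the RGS tumors depends on its length: the table gives 1757 bases and the exon union of GENCODE M21 2437 bases. With the latter, an alternative chosen after seeing the data, its mean is 185 with RGS, below *Tuba1b* and with a range that overlaps *Tuba1c*. By principal transcript lengths its range with RGS overlaps *Tuba1b*. With vehicle it lay below both under either length. There its mean also fell below that of *Tubb4b*, at 89.3 against 101 by principal transcript length and 64.4 against 77.1 by exon union.

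Isotype shares within each tumor do not depend on library size. A share is the level per length of a gene as a percent of the sum of its family in the same tumor. The length taken for *Tubb6* (1757 bases, or 2437 by exon union) enters every beta share, and shares by the longer length are not given. With 3 tumors against 3, the exact permutation test (two-sided) cannot go below p = 0.1, so no share could pass 0.05.

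*Tubb5* made up 54.1%, 53.9% and 53.5% of beta RNA in the vehicle tumors and 43.6%, 44.7% and 44.8% in the RGS tumors. The share was lower in all RGS tumors, with a difference of -9.49 percentage points (exact permutation p = 0.1), although *Tubb5* itself rose. *Tubb6* took 21.97%, 19.7% and 18.3% with vehicle and 27.7%, 26.2% and 26.0% with RGS (exact permutation p = 0.1). *Tubb2b* went from 2.69%, 2.81% and 2.83% to 6.42%, 5.91% and 5.97%, and *Tubb3* from 3.83%, 3.28% and 3.59% to 4.51%, 6.25% and 5.27% (exact permutation p = 0.1 for each). For these 3 isotypes every RGS tumor exceeded every vehicle tumor. *Tubb4b* had 17.2% ± 2.18 with vehicle and 14.7% ± 0.370 with RGS, and *Tubb2a* 2.58% ± 0.0781 and 2.88% ± 0.208 (SD, n = 3, exact permutation p = 0.2 for each). The groups overlapped in both.

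Within alpha RNA, *Tuba1b* made up 39.9%, 33.5% and 32.8% in the vehicle tumors and 27.6%, 27.0% and 28.0% in the RGS tumors (exact permutation p = 0.1). Its share was lower in all RGS tumors while its level overlapped between the groups. *Tuba1c* went from 18.1%, 17.3% and 16.4% to 20.1%, 21.5% and 20.0%, and *Tuba4a* from 2.25%, 1.43% and 1.39% to 4.27%, 4.07% and 4.73% (exact permutation p = 0.1 for each). *Tuba1a* held 39.8%, 47.8% and 49.5% with vehicle and 48.1%, 47.4% and 47.2% with RGS (exact permutation p = 0.9), and vehicle tumor 7 alone lay apart. The 10 shares were tested separately, and none passes 0.05 with or without adjustment.

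**Figure D3:**
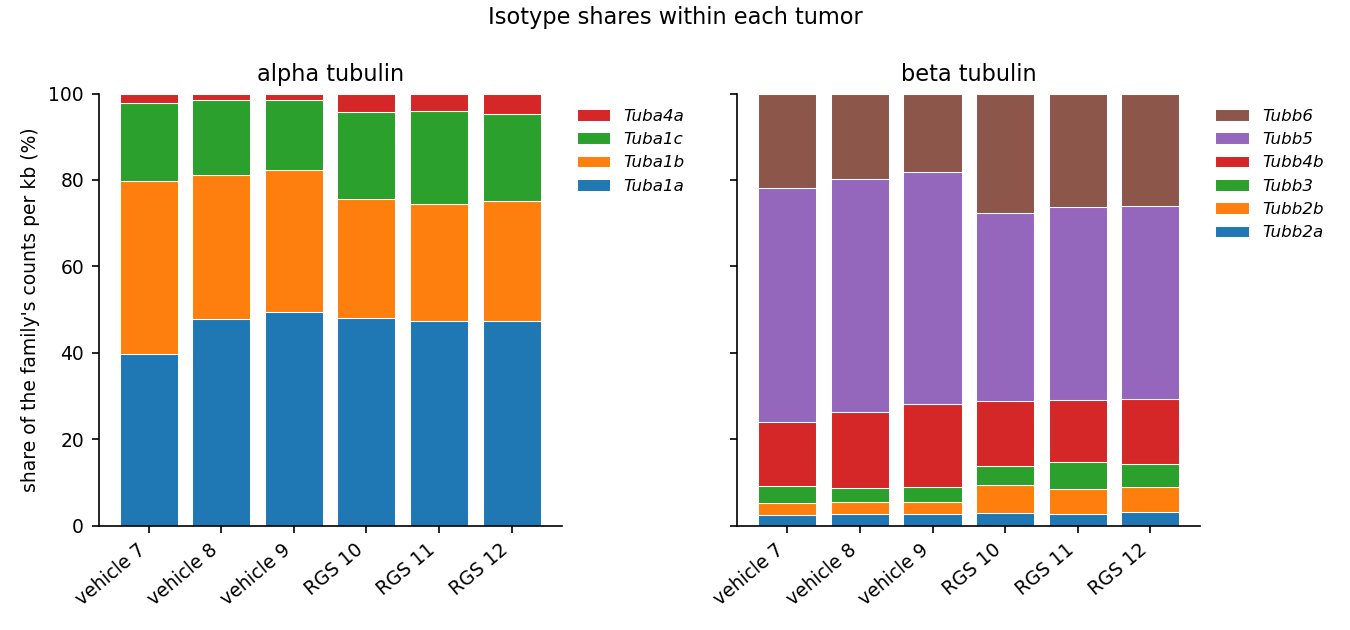
Share of each isotype in the summed level per length of its family, in percent, stacked for each of the 6 tumors, with the alpha family and the beta family in separate panels. *Tubb5* fills 53.5% to 54.1% of the beta bars in vehicle and 43.6% to 44.8% in RGS tumors, and *Tuba1b* fills less of the alpha bars in RGS tumors.

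The members were also compared by how steadily a pair kept its ratio over the 6 tumors, measured as the SD of the log2 ratio of their CPM values. The steadiest pairs were *Tuba4a* with *Tubb6* (0.119) and *Tubb4b* with *Tubb5* (0.130), each rising by a similar amount. *Tubb2a* and *Tubb2b*, close in sequence and position, had 0.540, and *Tuba1b* with *Tubb2b* had the widest value, 1.26. Outside the members, the genes nearest to *Tuba1a*, the member with the highest mean level per table length over the 6 tumors, were *Tsr3* (0.0963), *Psmd13* (0.0998), *Med7* (0.10), *Acot9* (0.102) and *Urod* (0.105), out of 8893 genes compared. By principal transcript length, or by CPM, *Tubb5* has the higher mean level. These values describe 6 tumors of 2 groups and carry no test.

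Promoters are shown for the steady pair *Tubb4b* and *Tubb5*, both of which rose. Each line holds a stretch that ends shortly after the gene start as RefSeq (GRCm38.p6) places it, read in the direction of the gene. By the gene positions of the count table the last 50 bases of the *Tubb4b* stretch and the last 55 of the *Tubb5* stretch lie inside the gene. Capitals mark 3 motifs that were searched on both strands. The CCAAT box was searched as CCAAT. The TATA box was searched as TATAAA. The GC box was searched as GGGCGG, and CCGCCC in capitals is its match on the other strand. No motif overlaps another.
Tubb4b (chr2:25224653-25224952, minus strand): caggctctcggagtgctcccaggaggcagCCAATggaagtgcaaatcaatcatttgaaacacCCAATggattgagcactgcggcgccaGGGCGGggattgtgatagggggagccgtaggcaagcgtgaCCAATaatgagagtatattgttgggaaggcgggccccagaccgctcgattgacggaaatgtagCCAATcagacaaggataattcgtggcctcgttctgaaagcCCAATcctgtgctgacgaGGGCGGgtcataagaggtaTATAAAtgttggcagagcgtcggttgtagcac
Tubb5 (chr17:35838252-35838551, minus strand): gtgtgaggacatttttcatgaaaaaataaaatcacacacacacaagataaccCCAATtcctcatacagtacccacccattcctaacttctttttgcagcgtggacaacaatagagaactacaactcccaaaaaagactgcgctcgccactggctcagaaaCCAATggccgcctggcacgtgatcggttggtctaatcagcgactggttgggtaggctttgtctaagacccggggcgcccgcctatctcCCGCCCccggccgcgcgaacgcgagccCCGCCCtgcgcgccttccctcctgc

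*Tubb4b* held 5 matches to the CCAAT box and *Tubb5* 2, and each held 2 matches to the GC box. The TATA box had 1 match in *Tubb4b* and 0 in *Tubb5*. Of 27025 promoters of this length, 37.9% held a CCAAT box, 35.9% a GC box and 14.2% a TATA box. Among other members, the CCAAT box had 0 matches in *Tuba4a*, *Tubb2a* and *Tuba1b*, and 1 in *Tubb3*, *Tuba1a* and *Tuba1c*. The GC box had 2 in *Tuba4a*, *Tubb2a*, *Tubb3* and *Tuba1b*, 1 in *Tuba1a* and 0 in *Tuba1c*. A match is only a run of letters and says nothing of binding in these tumors, and a link between motifs and change was not tested.

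The other tubulin genes were low. Of the 8 listed, 4 passed the filter on low counts, of which 0 rose and 2 fell, beside 16.3% higher and 16.5% lower among all tested genes. *Tubb4a*, a beta isotype of neurons and myelinating cells, measured 0.0571, 0.249 and 0.516 CPM with vehicle and 0.757, 2.49 and 1.35 CPM with RGS, a log2 fold change of 2.47 (SE 1.22, adjusted p = 0.130) that did not pass the test. The alpha isotype *Tuba8* had 0.16 (adjusted p = 0.899). *Tubd1*, delta tubulin of the centriole, measured 3.48, 3.67 and 6.23 CPM with vehicle and 1.09, 0.603 and 0.734 CPM with RGS (log2 fold change -2.44, SE 0.65, adjusted p = 0.00754). *Tube1*, epsilon tubulin, measured 8.25, 6.45 and 9.20 CPM with vehicle and 3.88, 2.03 and 4.65 CPM with RGS (log2 fold change -1.17, SE 0.43, adjusted p = 0.0415). *Tubd1* and *Tube1* rest on few reads: 1 of them was called without vehicle tumor 7, vehicle tumor 8, RGS tumor 10 or RGS tumor 11, and 0 without vehicle tumor 9.

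Of 12 genes tested of the tubulin RNA decay pathway, 3 rose and 3 fell, beside 16.3% higher and 16.5% lower among all tested genes, with a median log2 fold change of 0.02. *Ttc5*, which recognizes the coding start shown above, measured 39.1, 55.1 and 47.0 CPM with vehicle and 31.5, 35.7 and 32.3 CPM with RGS. Its log2 fold change was -0.50 (SE 0.19, adjusted p = 0.0491), at the edge of the threshold. *Scaper*, the adaptor, had -0.78 (SE 0.30, adjusted p = 0.0556) and did not pass. Of the CCR4-NOT subunits, the catalytic *Cnot6l* (-0.63) and *Cnot7* (-0.46) fell, while *Cnot8* (0.44), also catalytic, and *Cnot3* (0.51) and *Cnot11* (0.55), which are scaffold or substrate-binding subunits, rose. These calls were fragile: the number higher dropped to 0 without vehicle tumor 8 or RGS tumor 12 and to 1 without vehicle tumor 9, RGS tumor 10 or RGS tumor 11, and the number lower to 0 without RGS tumor 10 and to 1 without vehicle tumor 8, RGS tumor 11 or RGS tumor 12.

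Prefoldin hands new tubulin chains to the chaperonin CCT, and the cofactors TBCA to TBCE then build the dimer. Of 13 prefoldin and cofactor genes 3 rose and 4 fell, with a median log2 fold change of -0.24, where 16.3% of all tested genes rose and 16.5% fell. *Vbp1*, a prefoldin subunit, measured 106, 162 and 208 CPM with vehicle and 61.9, 49.6 and 58.4 CPM with RGS (log2 fold change -1.48, adjusted p = 2.36e-05). The prefoldin subunits *Pfdn5* (-1.40) and *Pfdn4* (-0.79) also fell, while *Tbcel*, a regulator that can take dimers apart, rose (0.86, adjusted p = 0.00167), as did *Tbcc* (0.68). The number higher was 1 without RGS tumor 12, and the number lower 2 without vehicle tumor 9 or RGS tumor 11.

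Of the 8 chaperonin subunits 1 rose and 4 fell, with a median log2 fold change of -0.24, against 16.3% and 16.5% of all tested genes. *Cct4* measured 591, 808 and 868 CPM with vehicle and 307, 319 and 364 CPM with RGS (log2 fold change -1.20, adjusted p = 2.27e-05). *Cct6a* (-0.80) and *Tcp1* (-0.51) also fell and *Cct8* rose (0.52, adjusted p = 0.0119). Subunits of the same ring thus differed in direction. The number lower was 2 without vehicle tumor 8, vehicle tumor 9 or RGS tumor 10, and *Cct8* lost its call without vehicle tumor 8 or RGS tumor 12.

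Of 21 tested enzymes that modify tubulin 5 rose and 2 fell, with a median log2 fold change of 0.30. Among all tested genes 16.3% rose and 16.5% fell. *Ttll1*, the catalytic subunit of a polyglutamylase that acts on the glutamates of the tails shown above, measured 27.8, 26.2 and 19.6 CPM with vehicle and 74.1, 83.6 and 99.5 CPM with RGS (log2 fold change 1.80, SE 0.19, adjusted p = 1.13e-06). *Tpgs2*, a subunit of the same complex, rose (1.01, adjusted p = 0.000241), as did the tubulin deacetylase *Hdac6* (1.08, adjusted p = 0.000252). *Tpgs1*, another subunit of that complex, had 0.14 (adjusted p = 0.655) and did not pass. The polyglutamylases *Ttll11* (-1.69, adjusted p = 0.00607) and *Ttll4* (-0.61, adjusted p = 0.0350) fell. *Ttl*, which puts the tyrosine back, had 0.60 (adjusted p = 0.0837) and did not pass. Without vehicle tumor 7 the number higher was 8, and the number lower was 0 without vehicle tumor 8 and 1 without vehicle tumor 9, RGS tumor 10 or RGS tumor 11.

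Of 19 genes of the gamma-tubulin complexes and the augmin complex, which start new microtubules, 2 rose and 4 fell (median -0.18), against 16.3% and 16.5% of all tested genes. *Tubg1*, the gamma tubulin of dividing cells, measured 60.3, 59.5 and 43.6 CPM with vehicle and 91.2, 109 and 98.1 CPM with RGS, a log2 fold change of 0.87 (SE 0.18, adjusted p = 0.000825). Its coding start, shown above, is not that of the alpha and beta genes. *Haus8*, of augmin, also rose (0.96), while *Haus6* (-1.64), *Mzt1* (-1.37) and *Haus2* (-1.10) fell.

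Of 28 genes whose products bind or cut microtubules 8 rose and 5 fell (median 0.27), where 16.3% of all tested genes rose and 16.5% fell, so the number lower was near the background. *Stmn4*, a stathmin that sequesters free dimers in neurons, measured 0.257, 0 and 0 CPM with vehicle and 9.14, 8.44 and 12.1 CPM with RGS (log2 fold change 6.58, SE 0.80, adjusted p = 4.94e-06). *Stmn1*, the widespread stathmin of dividing cells, fell (-0.67, adjusted p = 0.0114). *Mapre3*, which tracks growing ends (1.55), and *Map1b*, a stabilizer of axons (1.35), rose, while the spindle factor *Tpx2* (-1.14) and the cold stabilizer *Map6* (-0.87) fell. The number lower was 2 without vehicle tumor 8 or RGS tumor 10 and 3 without vehicle tumor 7 or RGS tumor 12.

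Of 9 cell division genes tested 0 rose and 7 fell, where 16.5% of all tested genes fell, with a median log2 fold change of -1.22. *Plk1* (-0.34, adjusted p = 0.370) and *Cenpf* (-0.69, adjusted p = 0.0774) did not pass, and the listed *Kif11* was at 0 in all 6 tumors. *Bub1*, a spindle checkpoint kinase, measured 50.8, 45.6 and 54.0 CPM with vehicle and 6.53, 7.91 and 6.98 CPM with RGS (log2 fold change -2.81, SE 0.22, adjusted p = 1.82e-08). *Ccnb1*, the mitotic cyclin (-1.96), and *Aurkb*, a mitotic kinase (-1.74), fell as well.

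**Figure D4:**
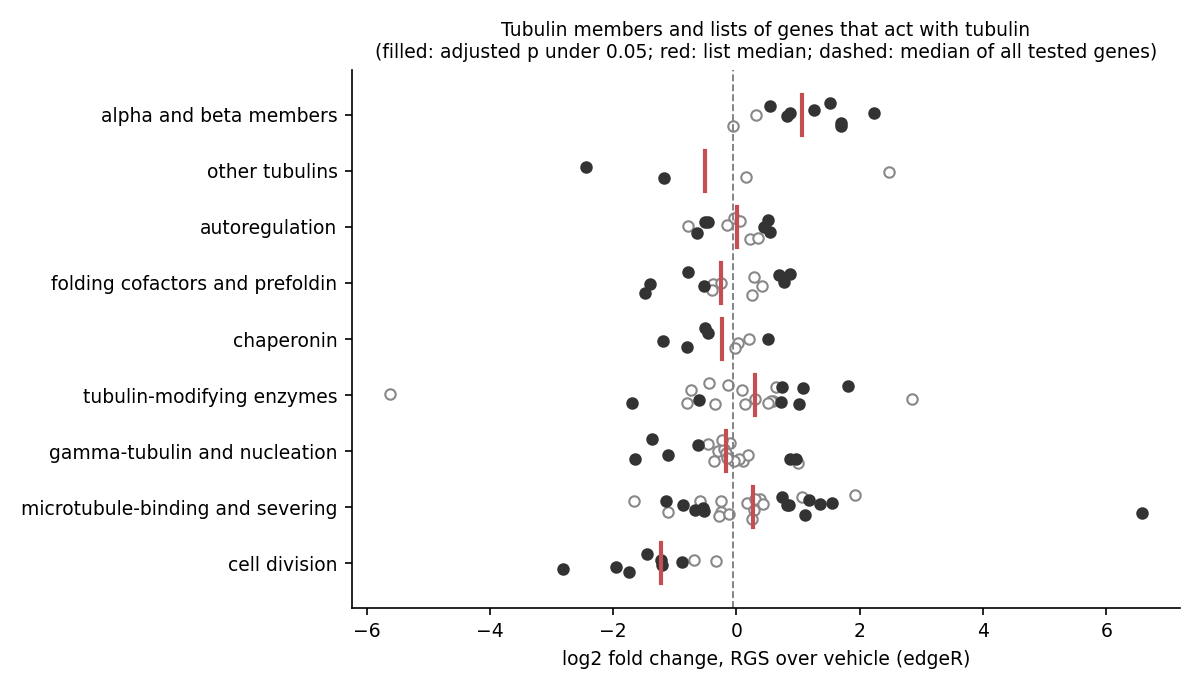
Log2 fold change, RGS against vehicle, of every tested gene of the tubulin members and the related lists, with 1 point per gene, filled where the gene passed the test, and a bar at the list's median. The members have a median of 1.07 and the cell division genes -1.22, while all tested genes have -0.05.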

How the data were processed

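RNA of 6 YUMM3.3 tumors was sequenced by the authors as 150-base paired reads. The authors deposited raw counts per gene, 1 column per tumor. Per the submitters' processing notes, the tools were cutadapt 1.18, FastQC 0.11.7, STAR 2.7.1a and featureCounts 1.6.4, with build mm10. Strand and multi-mapping settings are not given in the sources used here.

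Genes whose median count reached 5 in either group were tested in R 4.3.3 with edgeR 4.0.16 (TMM factors, quasi-likelihood F test), with Benjamini-Hochberg adjustment over 15355 genes and a threshold of 0.05. The fold changes have the fit's SE. CPM used TMM-scaled libraries, and levels per length the table's gene length. That length equals the exon union of GENCODE M21 for every member except *Tubb6* (1757 against 2437 bases). Shares were compared by an exact permutation test (two-sided). Alternatives included DESeq2 1.42.0, and the fit was tested on simulated data.

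The members and lists were chosen with earlier results of these data known. All members are named. Of each list, up to 3 genes per direction were named that passed the threshold, with a mean of at least 1 CPM and groups that did not overlap, those with the largest fold change. *Tubb4a*, *Tuba8*, *Scaper*, *Ttl*, *Tpgs1*, *Plk1*, *Cenpf*, *Kif11* and the single markers with values were added after their values were seen. The genes most like *Tuba1a* were the 5 with the smallest SD among those with a mean of at least 10 CPM. The listed genes *Haus1* and *Katna1* were not analysed here, and some coding tails are not reported here. Cell type markers were summed as CPM per list. With RGS and vehicle, the sums ran from 290.4 to 318 and from 393 to 582 CPM for fibroblasts, from 65.4 to 88.2 and from 58.9 to 64.7 CPM for macrophages, from 919.7 to 1027 and from 187 to 248 CPM for leukocytes, and from 5.12 to 11.7 and from 10.8 to 11.5 CPM for Schwann cells. The macrophage sum was nearly all *Cd68*, with *Adgre1* at 0 in every tumor. Of the fibroblast markers, 3 were called lower, but *Dcn* was called higher (log2 fold change 3.24, adjusted p = 6.23e-05). The T cell list summed to 0.612 to 1.42 CPM with RGS and 0 CPM with vehicle. All of it was *Trac*, while *Cd3d*, *Cd3e* and *Cd8a* were at 0 in every tumor. The endothelial list ran from 3.24 to 11.2 CPM with RGS and from 0.946 to 1.20 CPM with vehicle, and most of the RGS sum was *Cdh5*. For keratinocytes the sums were 6.72 to 21.0 CPM with RGS and 0.40 to 1.72 CPM with vehicle. Most of the RGS sum was *Ivl* (5.87 to 19.6 CPM, and 0 with vehicle), while *Krt5* had at most 2 counts and *Krt14* at most 1. Such sums can rest on 1 gene and do not measure how many cells of a type were present. For skeletal muscle they were 1.36 to 2.46 CPM with RGS and 2.88 to 4.42 CPM with vehicle. The B cell and platelet lists summed to at most 0.473 and 12.1 CPM in any tumor. No other samples' columns were in the table.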

Additional observations from a re-analysis of the deposited data

How the results depend on the processing

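No paired analysis was possible because the tumors' numbers, 7 to 12, are not shared between the groups. Over the scaling, filter, dispersion and DESeq2 alternatives and with mitochondrial genes left out, 7 or 8 of the 10 members were higher and 0 lower, the 7 coming from scaling by total count alone, where *Tuba1c* missed the threshold. With near-identical copies summed, 6 of the resulting sums and genes were higher, all but the sum of *Tuba1a*, *Tuba1b* and *Tuba1c*. Leaving out each tumor gave 7 to 9 higher and 0 lower. Scaling by total count alone put the median log2 fold change of all genes at -0.19 in place of -0.05, changed the calls over all genes from 2503 higher and 2533 lower to 1870 and 3152, and gave a log2 ratio of the beta sums of 0.96 in place of 1.11. It also left 0 decay pathway genes and 0 chaperonin genes called higher. Taken over all 10 members instead of within a family, the share with RGS minus that with vehicle reversed for *Tuba1a* (-5.54 percentage points), *Tuba1c* (-0.824), *Tubb4b* (1.06) and *Tubb5* (2.34), since beta RNA grew relative to alpha. For *Tuba1a* within its family it ran from -1.06 to 3.80 over the left-out tumors, the lowest without vehicle tumor 7. Over the left-out tumors the lists had 0 to 2 other tubulins lower, 0 to 3 decay pathway genes higher and 0 to 3 lower, 1 to 4 folding genes higher and 2 to 6 lower, 0 to 1 chaperonin genes higher and 2 to 4 lower, 4 to 8 modifying enzymes higher and 0 to 2 lower, and 2 to 5 microtubule-binding genes lower. An added alternative, chosen after seeing the data, used the principal transcript's length and gave a log2 ratio of 1.07 for the beta sums and 0.29 for the alpha sums. Among alternatives added in the same way, the level of *Tubb6* with RGS was 185 CPM per kilobase by the exon union of GENCODE M21 in place of 256, and the ratio of beta to alpha stayed below 1 in the vehicle tumors and above 1 in the RGS tumors by that length and by principal transcript length. By sums of CPM it exceeded 1 in vehicle tumor 7 as well. With 3 tumors per group, differences of the size seen for *Tuba1a* could not be separated from the spread between tumors.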
